A study of Sus scrofa with 13 samples.

Results

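The proteasome genes described here are the rows of the pig liver count table whose gene symbol starts with PSM, a letter from A to G and a digit. This rule used the symbol alone and no measured value, and it took 46 of the 35670 rows. Of these, 44 had reads and passed the filter on low counts that left 16481 genes for the tests. PSMA8, the testis form of an alpha subunit, and PSMB11, the catalytic subunit of the thymus, had 0 reads in all 13 libraries, where a 0 still leaves room for up to 3 reads. PSMC3IP, a meiotic recombination factor, and PSME3IP1, which binds an activator subunit, matched the rule by name without being subunits. PSMC3IP had at most 24 reads in a library. PSMB5 and PSMB6, which with PSMB7 are the constitutive catalytic subunits, and the assembly chaperones PSMG2 and PSMG4 had no row under these symbols and are not analysed here.

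Bulk RNA sequencing covered 13 liver biopsies of Yorkshire pigs, female and bred for the purpose. Baseline (n = 2, replicates 1a and 2) is liver with no ischemia and no reperfusion. Ischemic controls (n = 3) had 45 min of ischemia by clamping of the vessels and 6 h of reperfusion, and received no cells. Livers with arterial infusion (n = 4) and portal infusion (n = 4) were clamped and reperfused in the same way and were given 3 M (mega) human bone marrow mesenchymal stromal cells (BM-MSCs) per kg body weight by way of the hepatic artery or of the portal vein. Each library is named by its group and replicate number, and the 11 livers taken at 6 h are called the injured livers. The cells are human, so a biopsy of an infused liver may hold human RNA, and no step that separates human from pig reads is named in the sources used here. All animals had anesthesia and laparotomy, for longer before a biopsy at 6 h than before one at baseline. No group without clamping was sampled at 6 h. Comparisons with baseline therefore cannot tell ischemia and reperfusion apart from time under anesthesia and surgery. Per the study's methods, liver was biopsied before clamping and again at 6 h, and all groups of pigs were clamped, so that a baseline biopsy came from an animal that was clamped later. The labels do not link a baseline biopsy to one taken at 6 h, and they were tested as separate samples.

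The proteasome degrades proteins that carry chains of ubiquitin. Its core particle is a barrel of outer alpha rings and inner beta rings, and the beta subunits PSMB5, PSMB6 and PSMB7 cut the substrate. Regulatory particles at the ends bind ubiquitin, unfold the substrate with a ring of ATPases and remove the ubiquitin. Interferon signalling replaces the cutting subunits by PSMB8, PSMB9 and PSMB10, which gives the immunoproteasome, and adds the activator ring of PSME1 and PSME2. This form supplies peptides for presentation on MHC class I, and cells of the immune system carry much of it without stimulation. In bulk tissue, fewer cells of a type and less RNA per cell cannot be told apart.

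Values are normalized counts, which are reads divided by the size factor of the library, so that they compare libraries and not genes. A log2 fold change, its SE and its p come from edgeR's quasi-likelihood test over all 13 libraries, and p-values were adjusted over the 16481 genes by the Benjamini-Hochberg method, with a threshold of 0.05 unless called unadjusted. Total counts lay between 18975413 and 35949178. Hepatocyte markers from ALB to HNF4A had summed normalized counts between 1973950 and 4168590 in every library. A few genes with high counts make up most of this sum, and single markers differed more. In portal infusion 1 TF had 22259 and APOC3 964264, where baseline had 273546 and 351673 for TF and 62545 and 75099 for APOC3. Of 12 tested, 4 were above 0 and 8 below in controls against baseline, and likewise in all injured livers. In each comparison 1 had an unadjusted p under 0.05, beside 4.37% and 4.72% of all genes. In a principal component analysis of the injured livers over 500 genes, which left the proteasome genes out, ischemic control 2, arterial infusion 1, portal infusion 1 and portal infusion 4 lay between 20.1 and 47.0 on the first component, and the other 7 livers between -26.0 and -7.27. These 4 livers, which come from all 3 injured groups, had between 13581 and 16993 genes with a read. The other libraries had between 15831 and 20282.

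No proteasome gene passed the threshold in any comparison. In ischemic controls against baseline the adjusted p was under 0.05 in 0 of the 44, as in 0% of all genes, and the unadjusted p in 1 of them, beside 4.37% of all genes. For the 11 injured livers against baseline these counts were 0 and 3, beside 0% and 4.72% of all genes. For the 8 infused livers against ischemic controls they were 0 and 0, beside 0% and 2.14% of all genes. DESeq2 called 0 of the 44 genes in these comparisons, beside 0.0401%, 0.0956% and 0.00408% of all genes. It also called 0 of them when the arterial route and the portal route were each set against controls and against each other, beside 0%, 0.0163% and 0.00408%. With so few calls over all genes, these counts set the proteasome genes apart in no way. The test for any difference among the 4 groups called 0 of them, with 0 at an unadjusted p under 0.05, beside 0% and 2.39% of all genes.

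The direction of the fold changes was uneven at 6 h against baseline. In ischemic controls 31 of the 44 genes had a log2 fold change above 0 and 13 below, which is 70.5% above 0 beside 50.2% of all genes. Their median was 0.31, against 0.005 over all genes. In 17 of them every ischemic control was higher than both baseline libraries, and in 1, PSMD2, every control was lower, beside 14.8% and 16.3% of all genes. With 3 libraries against 2 such a separation is common. Over the 11 injured livers 31 genes had log2 fold changes above 0, beside 49.4% of all genes, and 12 of the 44 genes were higher in every liver than in both baseline libraries and 0 were lower, beside 3.3% and 3.97% of all genes. The 12 genes were PSMB3, PSMB4, PSMA6, PSMA7, PSMC4, PSMC5, PSMD8, PSMD9, PSMD11, PSMD13, PSME2 and PSME3IP1. Leaving out the 4 livers that stand apart gave counts of 16 and 0, beside 5.1% and 5.9% of all genes, and in controls 20 and 1, beside 20.7% and 22.2%. The median over the 44 genes was then 0.39 in injured livers, and 0.44 with them. Both comparisons share the same 2 baseline libraries.

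**Figure D1:**
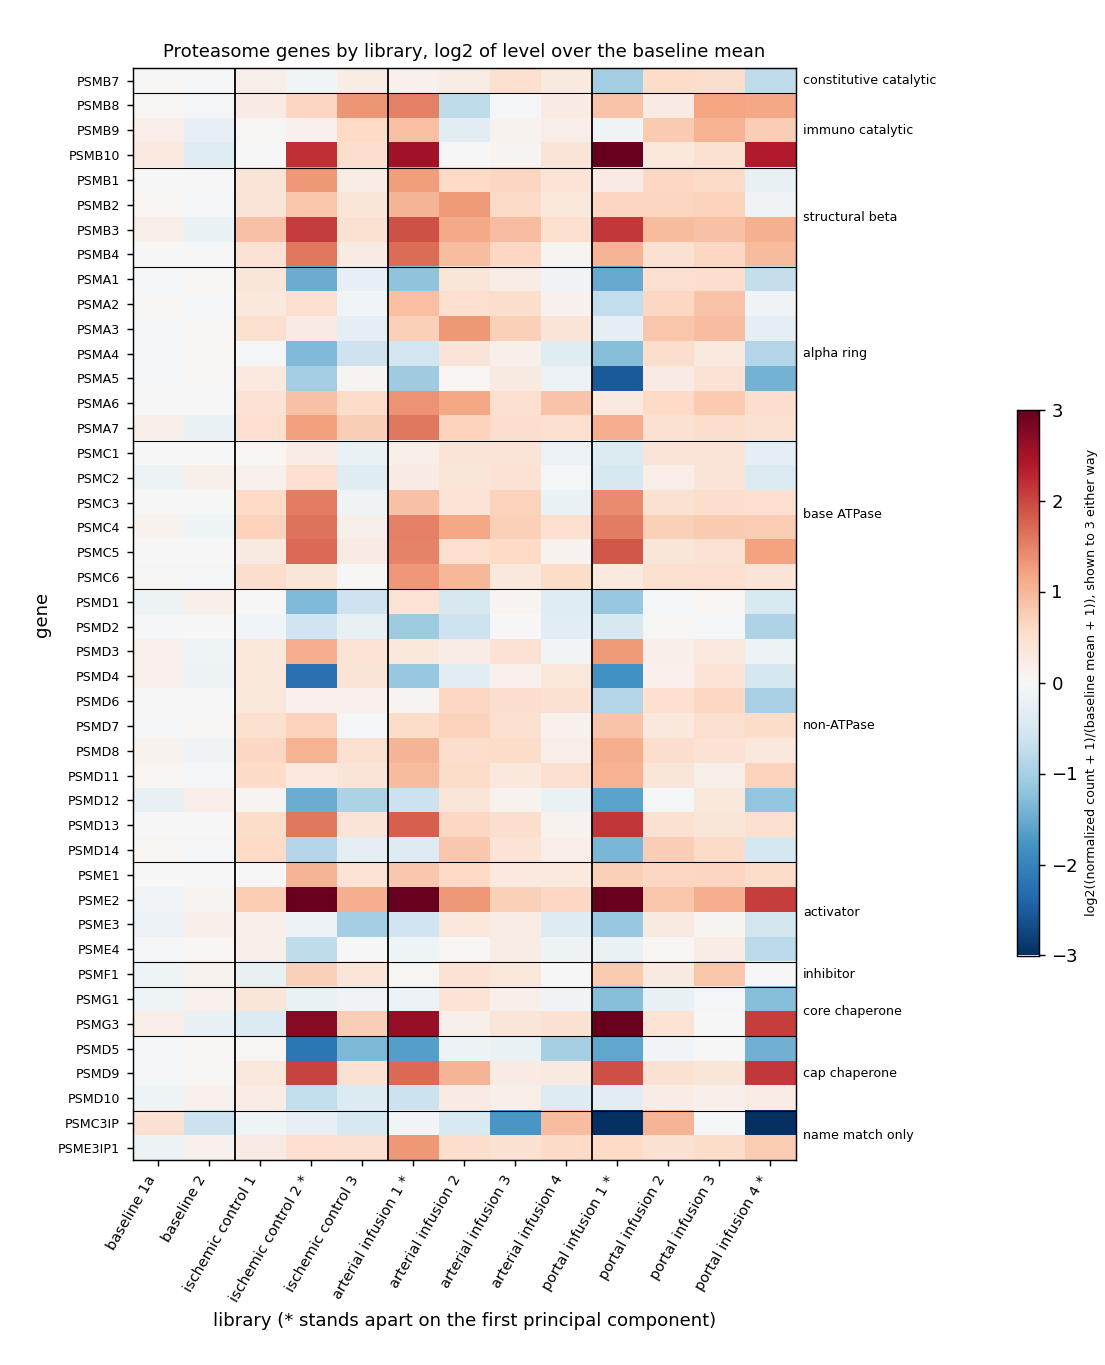
Heat map of the 44 proteasome genes with reads (rows, grouped by role) in 13 libraries (columns), coloured by the log2 ratio of normalized count plus 1 to the baseline mean plus 1. The structural beta genes are above baseline in most injured livers, and the strongest colours, for PSMB10, PSME2, PSMG3 and PSMD9 above and PSMA5, PSMD4, PSMD5 and the low-count PSMC3IP below, lie in the 4 starred livers.

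The inner ring had log2 fold changes above 0 for all of its structural genes. PSMB1, PSMB2, PSMB3 and PSMB4 are beta subunits without cutting activity, which help to form the ring. All 4 were higher in every ischemic control than in both baseline libraries, with log2 fold changes between 0.53 and 1.29 and a median of 0.78. Without ischemic control 2, which had the highest value of the controls in each gene, they lay between 0.34 and 0.71, with a median of 0.39. PSMB3 had the smallest p of the proteasome genes in both comparisons with baseline. It lies on chromosome 12 at 23347060 to 23357616 (Sscrofa11.1, RefSeq). Its normalized counts were 1505 and 1156 at baseline and 2448, 5689 and 1813 in ischemic controls. They were 4998, 2916, 2529 and 1842 after arterial infusion and 5787, 2563, 2460 and 2790 after portal infusion. Every injured liver was above both baseline libraries, and the highest values were in 3 of the 4 livers that stand apart. The log2 fold change was 1.29 ± 0.57 (SE) in ischemic controls, with adjusted p = 0.978, and 1.25 ± 0.51 over all injured livers, with adjusted p = 0.855. The value for controls was 0.69 without the 4 livers, and that for all injured livers 0.84. PSMB4 had 2134 and 2133 at baseline and between 2250 and 6833 in injured livers, PSMB2 1491 and 1386 against 1332 to 3501, and PSMB1 2127 and 2077 against 1794 to 5164. For PSMB1 and PSMB2 only portal infusion 4 was below baseline.

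The ATPase ring of the regulatory particle unfolds the substrate. All 6 genes, PSMC1 to PSMC6, had log2 fold changes above 0 in ischemic controls, from 0.03 to 0.93, with a median of 0.56. Without ischemic control 2, 4 were above 0 and 2 below, with a median of 0.30. Over all injured livers the 6 genes were above 0 with the 4 livers that stand apart (0.10 to 0.96) and without them (0.19 to 0.71). PSMC4, on chromosome 6 at 48406237 to 48414470, was among the 3 genes with the smallest p in both comparisons. Its normalized counts were 2093 and 1788 at baseline, 3124, 5973 and 2159 in ischemic controls, 5538, 4352, 3198 and 2699 after arterial infusion, and 5621, 3184, 3338 and 3281 after portal infusion. Every injured liver was above both baseline libraries, ischemic control 3 by the smallest step. In controls the log2 fold change was 0.93 ± 0.48 (SE), with adjusted p = 0.978, and 0.96 ± 0.43 over all injured livers, with adjusted p = 0.855. These values were 0.46 and 0.71 without the 4 livers. PSMC5 was also above baseline in every injured liver, with 3221 and 3187 at baseline and between 3440 and 11631 in injured livers. PSMC1 and PSMC2 had log2 fold changes of 0.03 and 0.12 in controls, and of -0.03 and -0.07 without ischemic control 2.

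The outer ring and the rest of the regulatory particle were split. Of the 7 alpha genes, which form the gate of the core, 4 had log2 fold changes above 0 in ischemic controls and 3 below, with a median of 0.19. With ischemic control 2 left out, 6 were above 0 and PSMA4 alone below. PSMA7 had 2507 and 1909 at baseline and between 3013 and 6579 in injured livers, and PSMA6 had 1699 and 1710 against 2087 to 4307, so that in both genes no injured liver reached down to baseline. PSMA1 and PSMA5 went the other way in the 4 livers that stand apart. PSMA5 had 2009 and 2129 at baseline, 1028, 983, 359 and 779 in the livers that stand apart (ischemic control 2, arterial 1, portal 1 and portal 4), and between 1831 and 2816 in the other injured livers. Of the 11 non-ATPase genes, 6 were above 0 and 5 below, with a median of 0.20. Above 0 were genes such as PSMD13 (0.91), PSMD8 (0.73), PSMD11 (0.42) and PSMD3 (0.63). Below 0 were PSMD12 (-0.60), the lowest, and PSMD1 (-0.53) and PSMD2 (-0.28), large scaffold subunits of the base. Also below 0 were PSMD4 (-0.09), a ubiquitin receptor, and PSMD14 (-0.05), the enzyme that removes ubiquitin chains. When ischemic control 2 was left out, 8 were above 0 and 3 below, and PSMD4 and PSMD14 were at 0.39 and 0.25. None of the genes in these rings had an unadjusted p under 0.05. PSMA5 and the genes named here of the non-ATPase subunits were chosen after their values were seen.

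**Figure D2:**
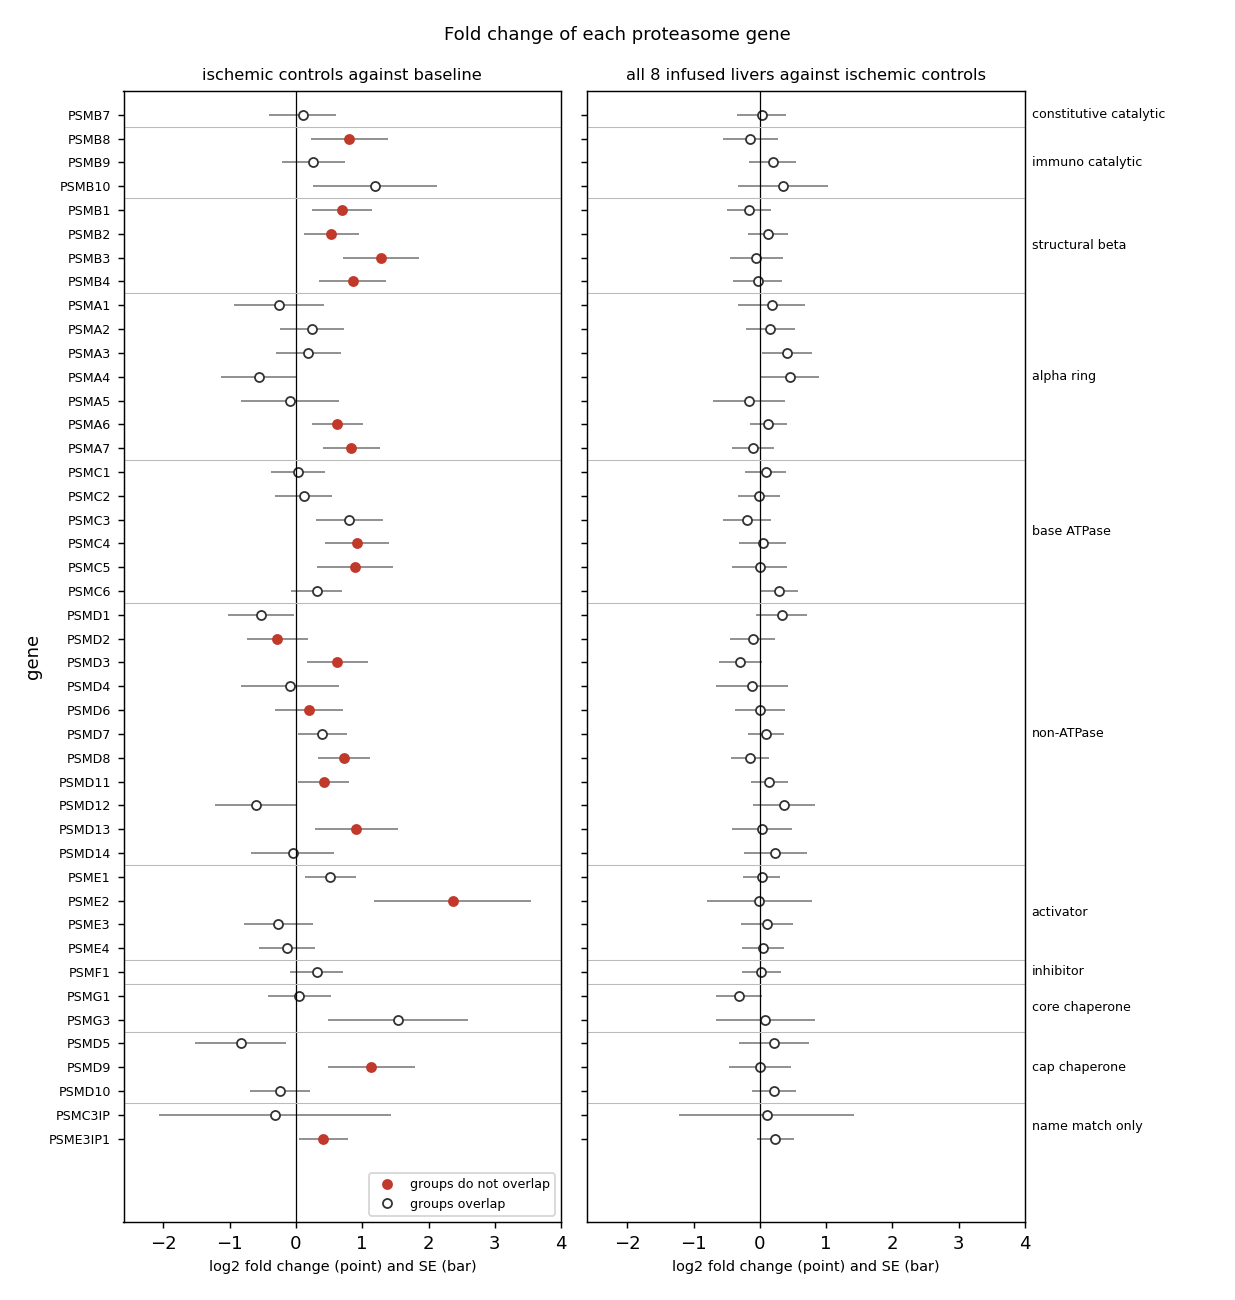
Log2 fold change (points) with SE (bars) of the 44 proteasome genes with reads, by role, for ischemic controls against baseline (left) and the 8 infused livers against ischemic controls (right). Filled points are genes whose groups do not overlap, 17 above and 1 below 0 on the left and 0 on the right, where values lie between -0.31 and 0.45.

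The catalytic subunits were the comparison of main interest, with PSMB7 as the only constitutive subunit measured. PSMB7, the trypsin-like subunit, lies on chromosome 1 at 265172257 to 265235389. Its normalized counts were 1289 and 1210 at baseline, 1405, 1171 and 1452 in ischemic controls, 1359, 1463, 1761 and 1538 after arterial infusion, and 604, 1846, 1788 and 734 after portal infusion. It stayed between 1171 and 1846 in 9 injured livers and was low in portal infusion 1 and portal infusion 4. The log2 fold change in controls against baseline was 0.10 ± 0.50 (SE), with a 95% interval from -0.97 to 1.18. It was 0.22 when ischemic control 2 was left out.

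PSMB10 takes the place of PSMB7 in the immunoproteasome, and it lies on chromosome 6 at 28544910 to 28547609. Its normalized counts were 815 and 519 at baseline, 676, 3070 and 957 in ischemic controls, 3842, 656, 703 and 872 after arterial infusion, and 5608, 830, 918 and 3478 after portal infusion. The livers that stand apart held the 4 high values, and the other 7 injured livers, between 656 and 957, overlapped with baseline. Its log2 fold change was 1.19 ± 0.93 (SE) in controls, with adjusted p = 0.978, and 1.44 ± 0.85 over all injured livers, with adjusted p = 0.855. They were 0.30 and 0.27 without the 4 livers.

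PSMB8, the immunoproteasome counterpart of PSMB5, and PSMB9, that of PSMB6, lie close together on chromosome 7, at 25058456 to 25061666 and 25072133 to 25077508. PSMB8 had 689 and 659 normalized counts at baseline, 797, 1054 and 1691 in ischemic controls, 1909, 400, 648 and 796 after arterial infusion, and 1218, 801, 1531 and 1514 after portal infusion. All controls and all livers with portal infusion were above both baseline libraries, while arterial infusion 2 and 3 were below. The log2 fold change was 0.80 ± 0.58 (SE) in controls, with a 95% interval from -0.43 to 2.04, adjusted p = 0.978. PSMB9 had 468 and 345 normalized counts at baseline, 415, 445 and 614 in ischemic controls, 764, 328, 435 and 464 after arterial infusion, and 369, 705, 839 and 674 after portal infusion. Its injured livers overlapped with baseline, and the log2 fold change was 0.27 ± 0.48 (SE) in controls, with a 95% interval from -0.76 to 1.29. The 3 immunoproteasome genes did not share 1 order of livers. PSMB10 was highest in portal infusion 1, PSMB8 in arterial infusion 1 and PSMB9 in portal infusion 3.

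**Figure D3:**
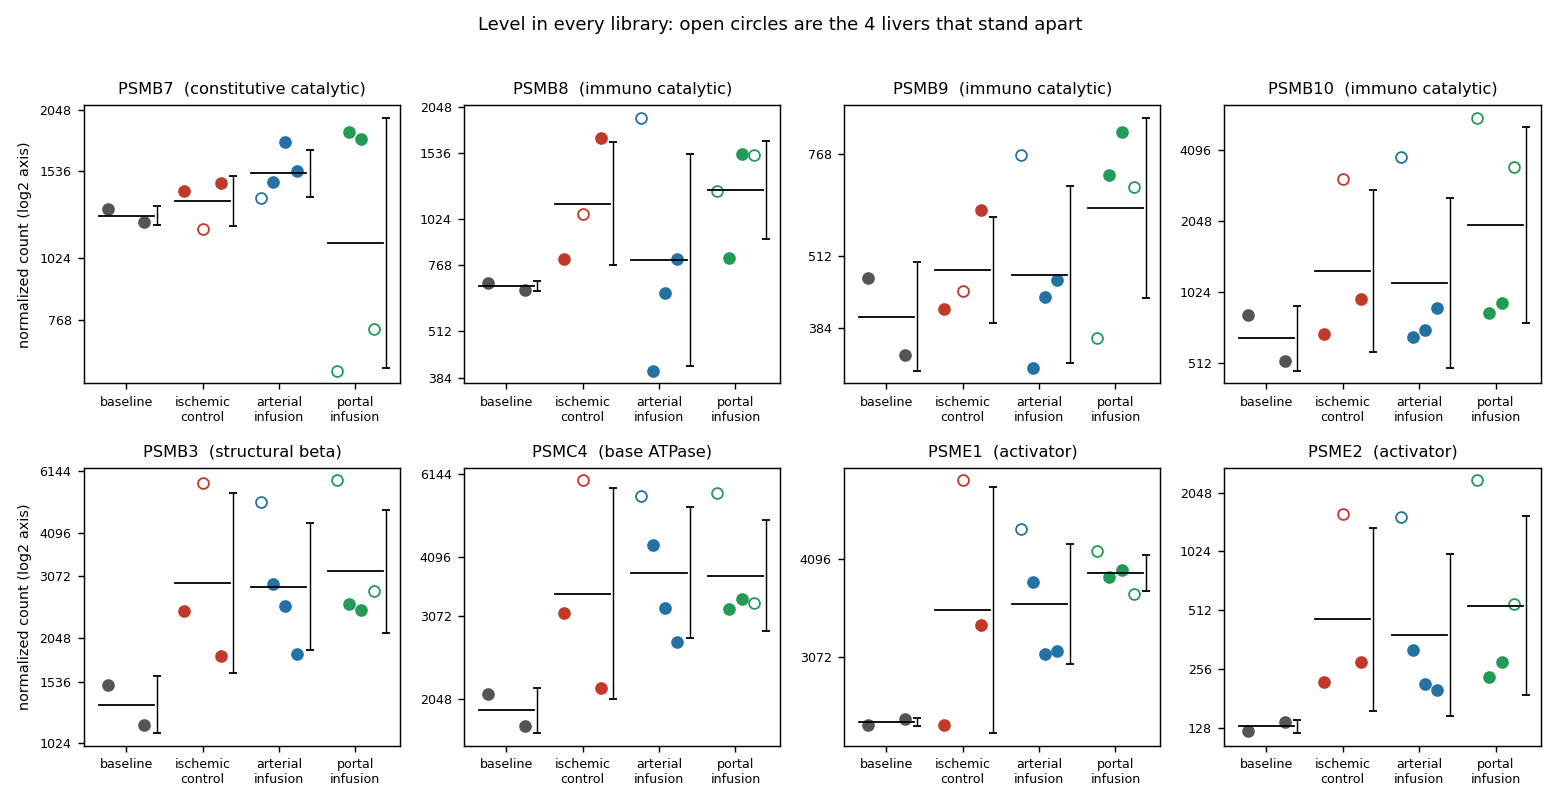
Normalized counts of 8 proteasome genes (log2 axis) in the 4 groups, a circle per library, open for the 4 livers that stand apart, with the mean (line) and SD (bar) of the log2 values. PSMB3, PSMC4 and PSME2 are above both baseline libraries in every injured liver, and the high values of PSMB10 are the open circles.

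Ratios of an immunoproteasome subunit to PSMB7 within a library do not depend on the size factor, apart from a pseudocount of 0.5. PSMB10 over PSMB7 was 0.632 and 0.429 at baseline, 0.482, 2.62 and 0.659 in ischemic controls, 2.83, 0.449, 0.399 and 0.567 after arterial infusion, and 9.27, 0.450, 0.514 and 4.74 after portal infusion. Reads were not corrected for transcript length, so a ratio of 1 does not mean equal numbers of transcripts. The ratio of PSMB10 to PSMB7 was between 2.62 and 9.27 in the 4 livers that stand apart and at most 0.659 in every other library. On the log2 scale it was higher by 0.85 in controls than at baseline (means -0.09 ± 1.30 SD, n = 3, and -0.94 ± 0.39, n = 2), with p = 0.6 by an exact two-sided permutation test, whose smallest possible p is 0.1. Over all injured livers the difference was 1.06, with exact p = 0.474, and without the 4 livers it was -0.069.

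PSMB8 over PSMB7 was 0.535 and 0.545 at baseline and 0.568, 0.900 and 1.16 in ischemic controls. It was 1.40, 0.274, 0.368 and 0.518 after arterial infusion and 2.02, 0.434, 0.856 and 2.06 after portal infusion. All 3 controls were above baseline, with a difference of means of 0.64 on the log2 scale and exact p = 0.2. Of the 11 injured livers 7 were above it, with a difference of 0.54 and exact p = 0.526. PSMB9 over PSMB7 ranged from 0.285 to 0.363 at baseline and from 0.224 to 0.918 in injured livers, and 7 of the 11 were above both baseline libraries, with exact p = 0.474. Between the infused livers and the controls the log2 differences were 0.28 for PSMB10, -0.14 for PSMB8 and 0.21 for PSMB9, with exact p = 0.8, 0.848 and 0.618. Adjusted over the 9 tests, which compare 3 ratios in 3 comparisons, the exact p-values lay between 0.795 and 0.848, so that no shift of the immunoproteasome against the constitutive subunit was detectable with these numbers of livers. With the mean of PSMB1 to PSMB4 below the line in place of PSMB7, a choice made after the data were seen, PSMB8 was lower by 0.03 and PSMB9 by 0.50 in controls than at baseline, so that the direction of both turned.

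**Figure D4:**
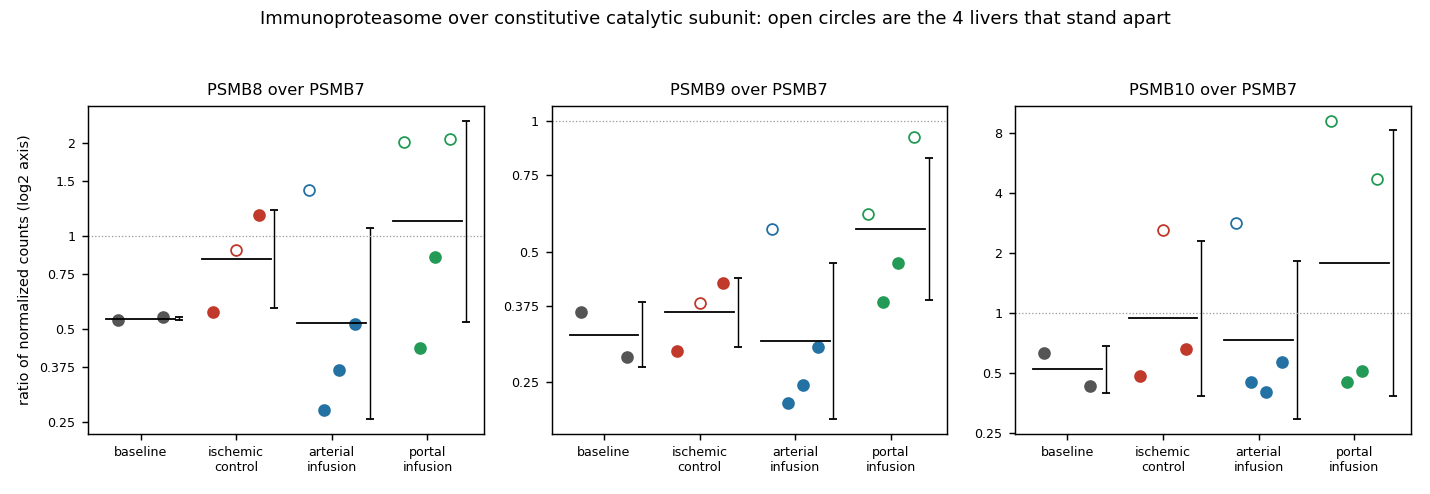
Ratio of the normalized counts of PSMB8, PSMB9 and PSMB10 to PSMB7 (log2 axis) by group, a circle per library, open for the 4 livers that stand apart, with the mean (line) and SD (bar) of the log2 ratios and a dotted line at 1. PSMB10 over PSMB7 is between 2.62 and 9.27 in the open circles and at most 0.659 elsewhere. Reads are not corrected for transcript length, so the dotted line does not mark equal numbers of transcripts.

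PSMB8 and PSMB9 lie close together on chromosome 7, with the gene TAP1 between them. Over the 11 injured livers they had a Pearson r of 0.71 and a Spearman rho of 0.68 between log2 levels, with permutation p = 0.0150 and 0.0253. The adjusted permutation p of r was 0.0451 over the 6 pairs of catalytic subunits. Without the livers farthest from the median of PSMB8, arterial infusion 1 and 2, r was 0.50. With each group centred on its mean r was 0.70, with an adjusted permutation p of 0.0963. PSMB7 and PSMB10 split into separate clusters of livers, so no r over all livers is given for the pairs that hold them. In the 7 livers with low PSMB10, r with PSMB8 was 0.85 and rho 0.82, with exact permutation p = 0.00754 and 0.0341 and adjusted p = 0.0451. Centred on group means this r was 0.39, with an adjusted permutation p of 0.699. Without the farthest livers, ischemic control 3 and arterial infusion 2, it was 0.68.

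The activators of the core open its gate without ubiquitin. PSME1 and PSME2 form the ring that interferon induces, and they lie side by side on chromosome 7 at 75161830 to 75164531 and 75154570 to 75157871. PSME2 had the largest fold change of the proteasome genes. Its normalized counts were 123 and 137 at baseline, 220, 1583 and 277 in ischemic controls, 1536, 320, 215 and 199 after arterial infusion, and 2370, 233, 277 and 551 after portal infusion. Every injured liver was above both baseline libraries, and 7 of the 11 were at least 2-fold above the baseline mean of 129.9. Against baseline the log2 fold change was 2.36 ± 1.18 (SE) in controls, with adjusted p = 0.978, and 2.36 ± 1.09 over all injured livers, with adjusted p = 0.855. Without the 4 livers it was 0.95 in both comparisons, and the other 7 injured livers were between 199 and 320.

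PSME1, its partner in the ring, had 2518 and 2559 normalized counts at baseline, 2516, 5160 and 3368 in ischemic controls, 4469, 3830, 3102 and 3128 after arterial infusion, and 4196, 3879, 3965 and 3693 after portal infusion. Ischemic control 1 was level with baseline and the other 10 injured livers were above it. The log2 fold change was 0.52 ± 0.38 (SE) in controls, with a 95% interval from -0.30 to 1.34, and 0.54 ± 0.33 over all injured livers, with adjusted p = 0.855. Without ischemic control 2 the value for controls was 0.24. The interval for PSME2 in controls, from -0.15 to 4.88, overlaps that of PSME1, and the difference between both genes was not tested. PSME3, which forms a nuclear ring, and PSME4, a single-chain activator, had log2 fold changes of -0.26 and -0.13 in controls, and PSMF1, an inhibitor of the core, had 0.31. These were -0.28, 0.12 and 0.13 when ischemic control 2 was left out.

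Assembly factors included the lowest log2 fold change of the 44 genes and, after PSME2, the highest. PSMG3, a chaperone of the core particle, had 274 and 204 normalized counts at baseline, 1592, 1459, 2486 and 1006 in ischemic control 2, arterial 1, portal 1 and portal 4, and between 178 and 396 in the other injured livers. Its log2 fold change in controls was 1.54 ± 1.06 (SE), with adjusted p = 0.978, and 0.27 without the 4 livers. PSMD9, a chaperone of the regulatory particle, had 807 and 858 at baseline and between 982 and 3602 in injured livers, with a log2 fold change of 1.13 in controls and 0.41 without the 4 livers. PSMD5, a chaperone of the same particle, had 971 and 1014 at baseline and between 221 and 1024 in injured livers, with a log2 fold change of -0.83 in controls, and of -0.47 without the 4 livers. It was at least 2-fold below baseline in 5 livers, which are the 4 that stand apart and ischemic control 3. PSMG3, PSMD9 and PSMD5 were chosen after their values were seen.

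Library by library, the number of proteasome genes at least 2-fold from the baseline mean was small in most livers. Ischemic control 1 had 0 higher and 0 lower, arterial infusion 3 had 0 and 1, arterial infusion 4 and portal infusion 2 had 1 and 0, ischemic control 3 had 2 and 2, portal infusion 3 had 3 and 0, and arterial infusion 2 had 7 and 0. In the livers that stand apart the counts were 15 and 7 in ischemic control 2, 17 and 5 in arterial infusion 1, 14 and 12 in portal infusion 1, and 7 and 5 in portal infusion 4. The share of all genes at least 2-fold from baseline was also largest there, between 22.6% and 27.5% higher and between 27.8% and 39.5% lower. Across the proteasome genes, Spearman's rho between the log2 ratio to baseline and the length of the gene on the genome lay between -0.47 and -0.38 in these 4 livers, and across all genes between -0.35 and -0.20. In the other 7 livers it lay between -0.33 and 0.11 across the proteasome genes and between -0.24 and -0.03 across all genes, so that the ranges of both sets of livers overlapped over all genes. The 2 baseline libraries, each set against the mean of both, had -0.30 (1a) and 0.30 (2) across the proteasome genes. Across all genes they had -0.11 and 0.11. These are correlations across genes within a library, and genes are not independent replicates. The part of gene length, of the number of genes with a read or of RNA quality in these values was not tested.

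**Figure D5:**
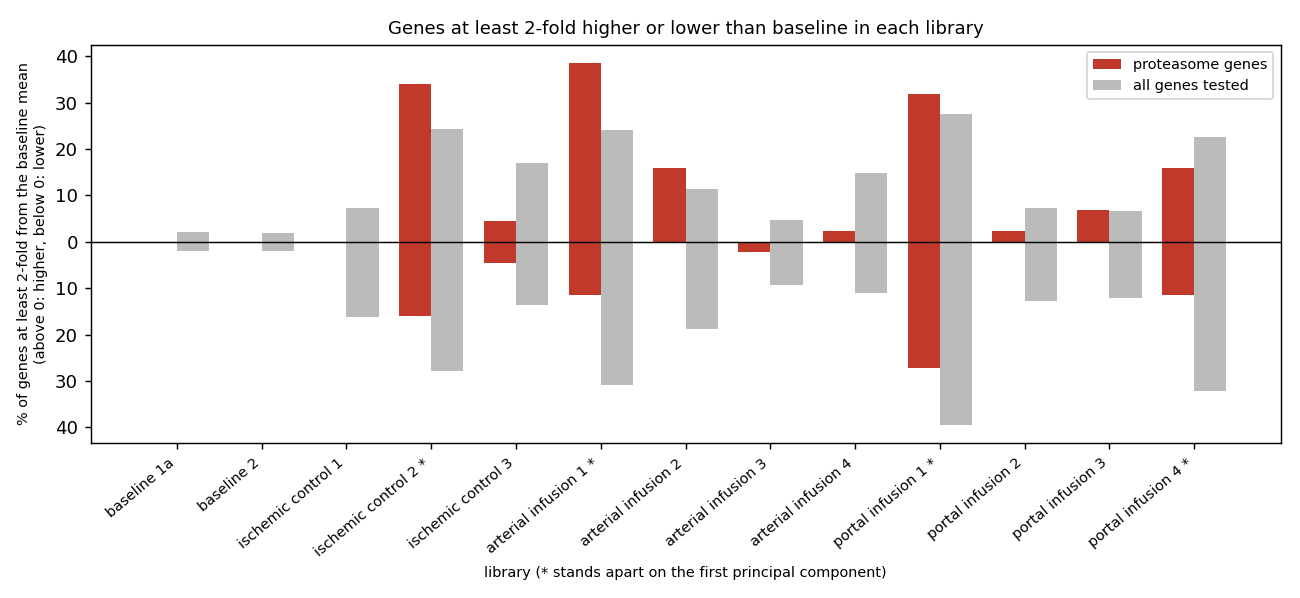
Percentage of the 44 proteasome genes (red) and of all genes tested (grey) at least 2-fold higher (above 0) or lower (below 0) than the baseline mean in each library. The 4 starred libraries have 22, 22, 26 and 12 such proteasome genes, and the other injured livers at most 7.

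No proteasome gene passed the threshold between infused livers and controls. Of the 44 genes, 30 had log2 fold changes above 0 in the 8 infused livers against ischemic controls, which is 68.2% beside 47.9% of all genes, but their median was 0.05 and their range -0.31 to 0.45, with a median SE of 0.36. Leaving out 1 library moved this median from -0.04 (without ischemic control 3) to 0.16 (without ischemic control 2). In 0 of the genes did the groups separate, beside 0.225% of all genes higher and 0.34% lower in every infused liver. When the 4 livers that stand apart were left out, 3 genes were higher and 0 lower in every infused liver, beside 5.73% and 6.31% of all genes. The alpha genes PSMA3 and PSMA4 and the ATPase gene PSMC6 had the smallest p. PSMA3 had 3471, 2973 and 2075 normalized counts in ischemic controls, 4081, 6111, 4069 and 3269 after arterial infusion, and 2080, 4428, 4725 and 2017 after portal infusion. Portal infusion 1 and 4 were as low as the lowest control and the other infused livers were at or above the middle one. The log2 fold change was 0.41 ± 0.37 (SE), with a 95% interval from -0.39 to 1.21, adjusted p = 1.00. It ran from 0.21 without ischemic control 3 to 0.62 without ischemic control 1, and was 0.70 without the 4 livers that stand apart.

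PSMA4 had 2029, 835 and 1349 normalized counts in ischemic controls, 1399, 2711, 2325 and 1615 after arterial infusion, and 865, 3021, 2558 and 1135 after portal infusion. Its log2 fold change was 0.45 ± 0.44 (SE), with adjusted p = 1.00, and it ran from 0.17 without ischemic control 2 to 0.86 without ischemic control 1. PSMC6 had 2001, 1788 and 1422 in ischemic controls, 3449, 2771, 1749 and 2052 after arterial infusion, and 1699, 1953, 1995 and 1817 after portal infusion, with a log2 fold change of 0.29 ± 0.29 (SE), adjusted p = 1.00, and 0.14 without ischemic control 3. In both genes the infused livers overlapped with the controls. For PSMB8, PSMB9, PSMB10 and PSME2 the log2 fold changes in infused livers were -0.14 (95% interval -1.03 to 0.75), 0.19 (-0.57 to 0.96), 0.35 (-1.10 to 1.80) and -0.01 (-1.70 to 1.68). These intervals leave room for more than a 2-fold difference of PSMB8, PSMB10 and PSME2.

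After arterial infusion 28 of the 44 genes were above the controls (63.6%, beside 50.8% of all genes), with log2 fold changes between -0.40 (PSMD3) and 0.61 (PSMA3). After portal infusion 26 were (59.1%, beside 48.1%), with values between -0.65 (PSMG1) and 0.74 (PSMB10). Both comparisons use the same 3 controls. Arterial against portal infusion gave values between -0.77 (PSMB10) and 0.68 (PSMG1), with 27 above 0 (61.4%, beside 52.9%). In these 3 comparisons 0 proteasome genes had an unadjusted p under 0.05, beside 1.57%, 2.79% and 2.4% of all genes. The groups separated in 0 of them, beside 1.61% of all genes higher and 1.57% lower after arterial infusion than in controls, 1.39% and 2.33% after portal infusion, and 0.91% and 0.498% in arterial against portal infusion. All 7 alpha genes were above 0 in arterial against portal infusion, with a median of 0.25, and all 3 immunoproteasome genes were below 0, between -0.77 and -0.38, where none had an unadjusted p under 0.05. Of the 4 livers that stand apart 1 had arterial and 2 had portal infusion. Without them 0 genes were higher and 7 lower in every liver with arterial infusion than in those with portal infusion, beside 10.4% and 10% of all genes. Against the 2 controls left, 19 were higher and 2 lower after portal infusion, beside 21.3% and 22.8%, and 3 were higher and 1 lower after arterial infusion, beside 8.85% and 8.97%.

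Compared with other genes the proteasome genes varied little between livers. The fold from the lowest to the highest injured liver had a median of 3.05 over the 44 genes, against 7.44 over all genes tested, and 6 of the 44 (13.6%) went over 5-fold, beside 62.2% of all genes. The 6 were PSMC3IP, which had 0 reads in 2 livers, PSMD4 (6.25-fold), PSMA5 (7.85-fold), PSMB10 (8.54-fold), PSME2 (11.9-fold) and PSMG3, which had the widest range of the subunit and assembly genes. PSMD4 was named after its values were seen. This comparison was not matched for the number of reads of a gene.

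Genes that serve the proteasome without carrying its name were read from lists. None of them passed the threshold. Of 15 partners of the particle tested, 8 were above 0 and 7 below in ischemic controls against baseline, with a median of 0.05. ADRM1, a ubiquitin receptor of the cap, had the smallest p, with 1614 and 1038 normalized counts at baseline and 2087, 3509 and 2781 in controls, and a log2 fold change of 1.05 (adjusted p = 0.978). POMP, which assembles the core, had 0.69. Of 6 genes for ubiquitin and its activation, 5 were above 0, with a median of 0.50. An unadjusted p under 0.05 was found in 1 of them, beside 4.37% of all genes. Of 7 genes that control the amount of subunits, 4 were above 0 and 3 below. NFE2L2, a regulator of the oxidative stress response, had -0.58, STAT3 -0.64 and SYVN1, a ubiquitin ligase of the endoplasmic reticulum, 0.51. In infused livers against controls USP14, a deubiquitinase of the cap, was first by p among the partners, with a log2 fold change of 0.51 (adjusted p = 1.00).

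The interferon and peptide loading list was split. Of 14 genes tested, 8 were above 0 and 6 below in ischemic controls, with a median of 0.08, and 0 had an unadjusted p under 0.05. B2M, the light chain of MHC class I, had 12333 and 8010 normalized counts at baseline and 12503, 37309 and 22699 in controls, with a log2 fold change of 1.22 (adjusted p = 0.978). GBP1, an interferon-induced GTPase, had 2530 and 4580 at baseline and 1114, 618 and 2509 in controls, and a log2 fold change of -1.31 (adjusted p = 0.978). IFNG, the gene of interferon gamma, had at most 10.1 normalized counts in a library and did not pass the filter, so that its level could not be compared between livers.

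Markers of other cell types were read as sums, and none passed the adjusted threshold. The summed normalized counts of 11 myeloid markers were 34189 and 46390 at baseline, between 54308 and 136113 in ischemic controls, between 39913 and 54508 after arterial infusion and between 41491 and 48792 after portal infusion, with none at 0. The highest sum was in ischemic control 2. Of these 11 genes, 9 had log2 fold changes above 0 in controls against baseline. An unadjusted p under 0.05 was found in 4 of them, beside 4.37% of all genes. In infused livers against controls 10 were below 0, 4 of them with an unadjusted p under 0.05, beside 2.14% of all genes. The sum of 11 lymphocyte markers lay between 1135 and 3416 in injured livers and was 1730 and 1823 at baseline, with CD2 at 0 in portal infusion 1. PTPRC alone had 1006 and 1051 at baseline. Against baseline 9 of these 11 genes were above 0 in controls and 10 in all injured livers. In each comparison 1 had an unadjusted p under 0.05, beside 4.37% and 4.72% of all genes. In infused livers against controls 5 were above 0 and 6 below, with 0 at an unadjusted p under 0.05. Endothelial and stromal markers summed to between 8807 and 44522 in injured livers and to 18431 and 29601 at baseline, with LUM at 0 in arterial infusion 1 and portal infusion 1 and RGS5 at 0 in portal infusion 1. Of the 11 tested, 10 were below 0 in all injured livers against baseline. In that comparison 0 had an unadjusted p under 0.05, beside 4.72% of all genes. In infused livers against controls 10 were below 0, 3 of them with an unadjusted p under 0.05, beside 2.14% of all genes. By route, 4 had one in portal infusion against controls and 0 in arterial infusion against controls, beside 2.79% and 1.57% of all genes. The part of these cell types in the values of the proteasome genes was not tested.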

How the data were processed

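RNA was measured in 13 pig liver libraries, grouped by the sample labels. The authors purified messenger RNA with poly-T beads, made non-directional libraries, mapped the reads to Sscrofa11.1 with HISAT2, counted them with FeatureCounts and deposited raw counts per gene. In non-directional libraries the strand of a read cannot tell overlapping genes apart. Counts are reads and not molecules. The p-values cover the spread between these samples and counting error, and a limit at 0 covers counting error alone. 0 columns were left without a sample.

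Tests used R 4.3.3 with edgeR 4.0.16 (filterByExpr, TMM, quasi-likelihood test, 4 groups in 1 fit). DESeq2 1.42.0 gave size factors and an alternative test. Methods were tested on simulated data. The rule for values in every library took the catalytic subunits, PSME1, PSME2 and the 3 proteasome genes with the smallest p in each main comparison. Of each other list at most 3 genes were taken. Where a marker symbol had several rows, that with the most counts was used. Members and lists were chosen with earlier results of these data known. Ratios to PSMB5 and PSMB6 were planned and could not be computed, as these have no row. Coordinates are from RefSeq (Sscrofa11.1), matched by symbol. Replicate numbers were not used as pairs. The deviations of same-numbered libraries from their group means had correlations over 0.1 in 5 of 16 pairs. In arterial with portal infusion they were 0.42, 0.29, 0.43 and -0.10 for replicates 1 to 4. Same-numbered pairs ranged from -0.42 to 0.43 and differently numbered pairs from -0.53 to 0.44, so that both ranges were alike. With 2 baseline libraries the deviations of both are mirror images, so this cannot decide whether a baseline biopsy and one at 6 h share an animal. Leaving out the 4 livers that stand apart, and giving each role without ischemic control 2, were chosen after the data were seen. Values of some single genes on these lists are not reported here.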

Additional observations from a re-analysis of the deposited data

Results flagged for a closer look

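Values far from the other 3 of their group were sought in 28 groups of 4 livers, for the genes and ratios with a value given in every library, and 6 were found by Dixon's test at the 95% level. Chance gives about 1 in 20 for independent tests. The same livers recur here, PSMB10 enters alone and in a ratio, and some genes were chosen by their p in these data. The rate therefore cannot be used to judge how many were found. In arterial infusion 1 the values found were PSMB10 with 3842 normalized counts, PSME2 with 1536 and the ratio of PSMB10 to PSMB7 with 2.83. In portal infusion 1 they were PSME2 with 2370, PSMB3 with 5787 and PSMC4 with 5621. All 6 are high values in livers that stand apart on the first principal component, which had 15460 and 13581 genes with a read. The part of RNA quality or cell makeup in them was not tested.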

How the results depend on the processing

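The count of proteasome genes called stayed at 0 in 112 of 112 alternatives (DESeq2, RLE and upper quartile normalization, other filters, mitochondrial genes left out, the replicate block, each library left out, and the 4 livers that stand apart left out). The main fit called 0 of the 16481 genes in each comparison, so these counts of 0 cannot tell the proteasome genes from other genes. DESeq2 over only the groups compared called 168 genes in controls against baseline and 0 of the 44. Of 493 values for single genes 26 turned sign and 0 were called. The cause was not tested. For PSME2 in infused livers against controls the log2 fold change was 0.010 with DESeq2 over all libraries, 0.013 over the groups compared only, 0.012 with RLE, 0.011 without mitochondrial genes, 0.069 with upper quartile normalization, 0.051 with at least 10 counts in every library and 0.0021 without the 4 livers. With the replicate block, PSMB7 was at -0.028 in controls against baseline and PSMB10 at -0.21 in infused livers against controls, and the block changed no call; without the 4 livers this PSMB10 value was -0.041.

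Leaving out 1 library moved infused against control values from -0.028 to 1.24 for PSMB10 (highest without ischemic control 2), -0.56 to 1.41 for PSME2 (lowest without portal infusion 1, highest without ischemic control 2), -0.37 to 0.18 for PSMB8, -0.090 to 0.16 for PSMB7 and -0.16 to 0.31 for PSME1. The ratio to PSMB7 moved from -0.20 to 1.02 for PSMB10 and from -0.43 to 0.092 for PSMB8, and that of PSMB9 in controls against baseline from -0.0057 to 0.34. Without ischemic control 2 the log2 fold change in controls against baseline was 0.71 for PSMB3, 0.48 for PSMC4, 0.97 for PSME2 and 0.32 for PSMB10.

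As a difference of medians, PSMB10 over PSMB7 in infused livers against controls was -0.29, and without the 4 livers -0.25. Over PSMB1 to PSMB4 in place of PSMB7, PSMB8 was at -0.030 in controls and -0.18 in all injured livers against baseline, and PSMB9 at -0.50 and -0.39. Without the 4 livers the ratio to PSMB7 in injured livers against baseline was -0.0082 for PSMB8 and -0.069 for PSMB10, and that of PSMB9 in infused livers against controls -0.17. Over 7 livers, r for PSMB7 with PSMB10 was 0.25, centred on group means -0.78, and 0.081 when centred with portal infusion 2 and 3 left out. For PSMB9 with PSMB10 it was 0.81, on log2 CPM 0.85 and centred -0.15. Centred r was 0.70 for PSMB8 with PSMB9 and 0.39 for PSMB8 with PSMB10. PSMB9 with PSMB10 had an adjusted permutation p of 0.0798 as log2 levels and 0.0357 as log2 CPM. The design limits all comparisons with baseline, which has 2 libraries, both taken before clamping.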
